A study of Mus musculus with 8 samples.

Results

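The collagen genes of the mouse eye were taken as every row of the count table whose symbol is Col, a number, the letter a and a number. This gave 44 genes of 32544 rows, and 41 of the 44 were abundant enough to be tested. By the structure of the protein they form 3 classes. There are 11 fibrillar collagens, all tested, and 8 basement membrane collagens, all tested, of which 6 are chains of type IV and the other two are the multiplexins Col15a1 and Col18a1. The other 25 collagens, of which 22 were tested, are fibril-associated, network-forming, beaded-filament, anchoring and membrane-spanning chains. Col6a4, Col6a5 and Col28a1 had too few counts for a test.

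Collagens are secreted as triple helices of identical or related chains, so the genes of a heterotrimer are usually needed together. Fibrillar collagens bear tension in the sclera and the corneal stroma, where types I and V form the bulk of the fibrils, and type II makes the fibrils of the vitreous. Type IV chains form the sheet-like network of basement membranes, which in the eye include the lens capsule, Bruch's membrane, the inner limiting membrane and the walls of vessels. Type VIII chains build the lattice of Descemet's membrane, which the corneal endothelium lays down, and types VII and XVII anchor the corneal epithelium to its base.

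RNA was sequenced from whole eyes of cKO mice, which carry Cre and lack Nr3c1 in the retina only, and of WT mice, which carry no Cre. Nr3c1 encodes the glucocorticoid receptor, and which promoter drives Cre is not given in the sources used here. All mice were 12-week-old males without drug treatment, and the light was on for 12 h and off for 12 h each day. Eyes were taken at ZT3 and ZT9, in the light, and at ZT15 and ZT21, in the dark, where ZT counts hours from lights-on. Each of the 8 libraries, 4 per genotype, holds RNA of 3 mice pooled in equal amounts. A value at 1 time has no replicate, the 4 times of a genotype act as its replicates, and a p-value speaks of the spread of pools, not of single mice.

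Total counts were 13672717 to 20309611 in cKO libraries and 11748995 to 15255578 in WT libraries. The TMM factors that scale these totals for CPM were 0.894 to 0.994 in cKO libraries and 1.034 to 1.079 in WT libraries. They did not overlap between genotypes, and a lower factor raises CPM. Nr3c1 had 38.2, 35.3, 36.4 and 32.5 CPM (counts scaled to library size) in cKO eyes at ZT3, ZT9, ZT15 and ZT21, against 78.2, 145.1, 126.7 and 133.7 CPM in WT eyes, so the labels of all 8 libraries hold for the targeted gene. The tissue field of the labels gives ciliary body, with nonpigmented ciliary epithelium as the cell type, but the protocols describe whole eyes. The 6 lens markers summed to 97190 to 131200 CPM in cKO eyes and 58860 to 79700 CPM in WT eyes. The 3 markers of nonpigmented ciliary epithelium that are no collagens summed to 1148 to 1337 CPM in cKO eyes and 862 to 1287 CPM in WT eyes. Many tissues therefore share each value, and in such bulk RNA fewer cells of a type and less RNA per cell cannot be told apart.

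The 44 collagens together took 0.142 to 0.171% of the counts in cKO eyes and 0.148 to 0.207% in WT eyes. The 95% Wilson interval of the highest share, in WT eyes at ZT3, was 0.205 to 0.209%, and such intervals cover counting error only. Of the collagen counts, basement membrane collagens held 39.0 to 46.2% in cKO eyes and 37.9 to 44.0% in WT eyes. Fibrillar collagens held 21.8 to 31.8% in cKO eyes and 20.2 to 37.7% in WT eyes, and the other collagens held 27.4 to 33.1% in cKO eyes and 24.4 to 35.8% in WT eyes. In WT eyes at ZT21 the basement membrane and fibrillar classes were level, at 37.9 and 37.7%.

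Levels of different genes compare only per length, and as CPM per kilobase of annotated exon, averaged over the 8 libraries, Col4a1 stood first with 37.6. It was followed by Col1a1 with 24.3, Col4a2 with 22.9, Col8a2 with 19.5, Col1a2 with 13.2, and Col18a1 and Col23a1 with 10.8 each. No other collagen reached 10 CPM per kilobase. The order of the type I chains depends on the length used. By the longest transcript Col1a2 had 30.8 and Col1a1 26.8 CPM per kilobase, because an annotated isoform lengthens the exons of Col1a2. Col4a1, at 32.2 to 44.2 CPM per kilobase over the libraries, overlapped in level with Col1a1, at 16.8 to 33.9. Col4a2 spanned 19.6 to 27.2 and Col8a2 8.79 to 34.3, so the neighbours in this order were not apart beyond their spread. At the low end Col6a4, an alpha chain of type VI, had 0 counts in WT eyes at ZT15, where a limit of 3 counts corresponds to 0.226 CPM.

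Members differed widely in how steady they were. Between the lowest and the highest of the 8 libraries the median span of the 41 tested collagens was 2.16-fold, with 1.98-fold for fibrillar, 1.80-fold for basement membrane and 2.32-fold for other collagens. Col2a1, the chain of vitreous and cartilage fibrils, spanned 1.27-fold, Col9a1, a fibril-associated chain of the vitreous, 1.33-fold, Col4a1 1.37-fold and Col4a2 1.39-fold. At the other end Col19a1, a rare fibril-associated collagen, spanned 9.32-fold, Col17a1, the hemidesmosome collagen, 6.36-fold and Col12a1, which decorates type I fibrils, 4.17-fold. Col10a1 and Col6a6 spanned 5.80-fold and 4.50-fold on as few as 6 and 5 counts in their lowest library. Counting error was small for the abundant members, with an exact Poisson 95% interval of 303 to 320 CPM around the 311 CPM of Col4a1 in cKO eyes at ZT3, and larger for scarce ones, with 1.88 to 3.55 CPM around the 2.61 CPM of Col7a1 in the same library.

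**Figure D1:**
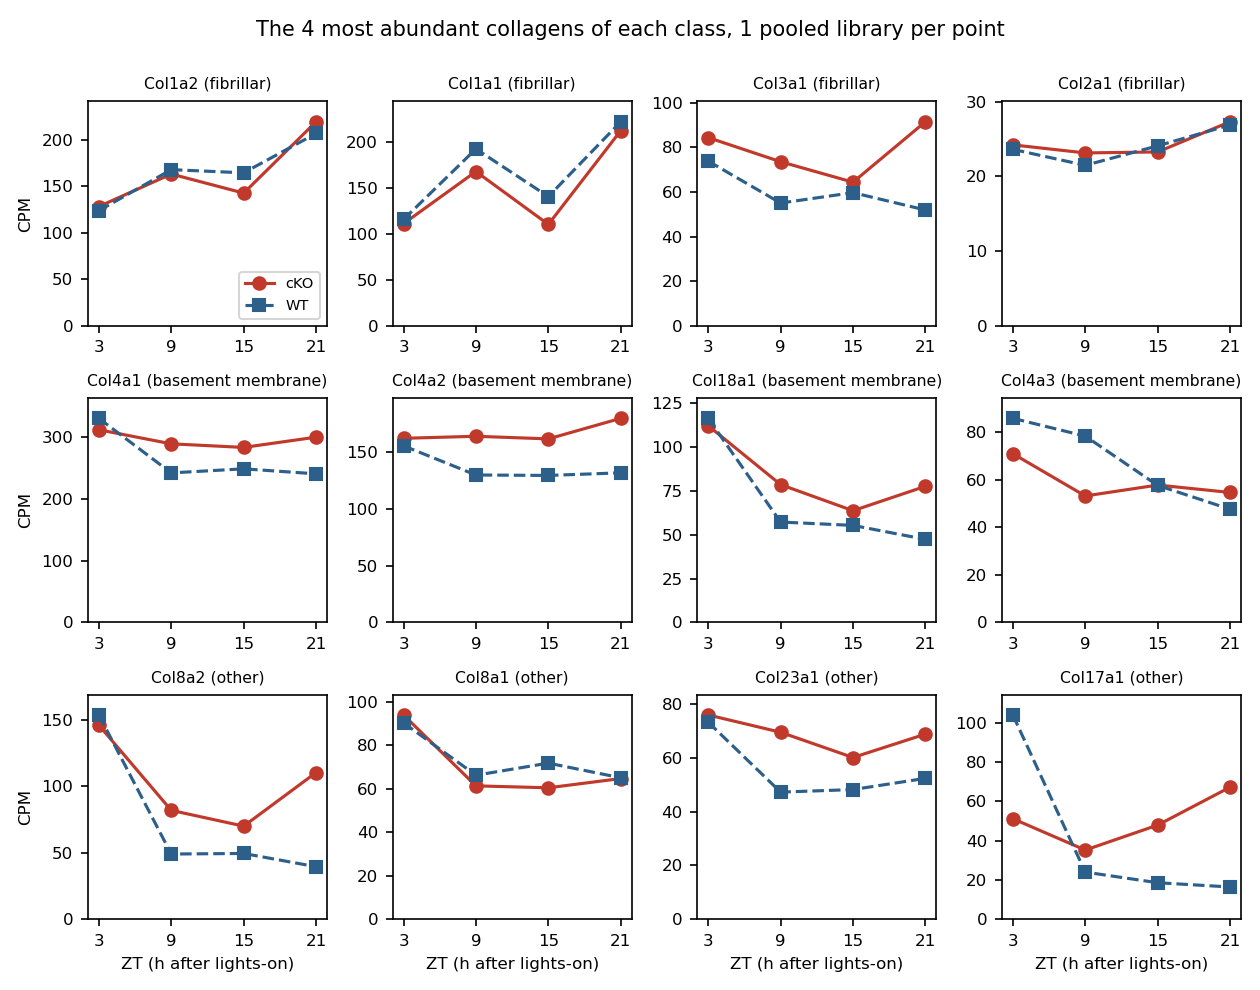
CPM of the 4 most abundant collagens of each class (rows: fibrillar, basement membrane, other) against ZT in hours, with red circles for cKO and blue squares for WT and 1 pooled library of 3 mice per point, so no error bar exists. Col1a1 of both genotypes and Col1a2 of cKO eyes are high at ZT9 and ZT21, whereas Col8a2, Col18a1 and Col17a1 of WT eyes are high at ZT3 only.

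The first comparison asked whether loss of the receptor in the retina goes with a different level of collagens in the eye as a whole. The largest log2 fold changes lay among the other collagens, with Col7a1 and Col20a1 lower and Col17a1, Col9a2 and Col8a2 higher in cKO eyes. The log2 fold change was above 0 for 6 of 8 basement membrane collagens, where 45.6% of all genes were above 0. It was below 0 for 9 of 11 fibrillar collagens, where 54.4% of all genes were below 0. No collagen passed an adjusted p of 0.05 in edgeR, which called 0 of all 15373 genes (0%). The smallest adjusted p of any gene was 0.141. An unadjusted p under 0.05 was reached by 11 of 41 collagens, 5 higher and 6 lower in cKO. The same threshold was passed by 21.5% of all genes tested, by 10.5% higher and by 11% lower. DESeq2 called 541 genes, 5.02% of those it adjusted (3.72% higher and 1.3% lower in cKO), and 1 collagen, Col9a2, which was higher. It gave many collagens no adjusted p, so these could not be called. Among them were Col20a1, Col7a1 and Col27a1, lower in cKO, with unadjusted p in DESeq2 of 0.00012, 0.00264 and 0.0316, beside 0.000997 for Col9a2. limma-voom called 0 genes and had 13 collagens at an unadjusted p under 0.05.

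The median log2 fold change of cKO over WT was -0.17 for fibrillar, 0.20 for basement membrane and -0.11 for other collagens, beside -0.09 for all tested collagens and -0.03 for all genes. Without TMM scaling, basement membrane collagens took 0.0619 to 0.0761% of all counts in cKO eyes and 0.0568 to 0.0911% in WT eyes. Over all genes 15.7% were higher in cKO at each of the 4 times and 15.1% lower. Of the collagens, 4 were higher at each time (Col3a1, Col4a2, Col9a2 and Col23a1) and 6 lower (Col1a1, Col27a1, Col7a1, Col16a1, Col19a1 and Col20a1). In scaled CPM the cKO libraries were all above the WT libraries for Col4a2 and Col9a2, where 3.73% of all genes did so. They were all below them for Col7a1 and Col20a1, where 3.16% of all genes did so. As plain shares of total counts, the genotypes overlapped for Col4a2 and Col9a2. Permuting the libraries of each of these 4 genes (exact, two-sided) gave p = 0.0286, which is the lowest value reachable with 4 libraries per genotype. That value follows from the separation by which the 4 genes were picked, so it adds no support. The permutation also did not keep libraries of the same time together.

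**Figure D2:**
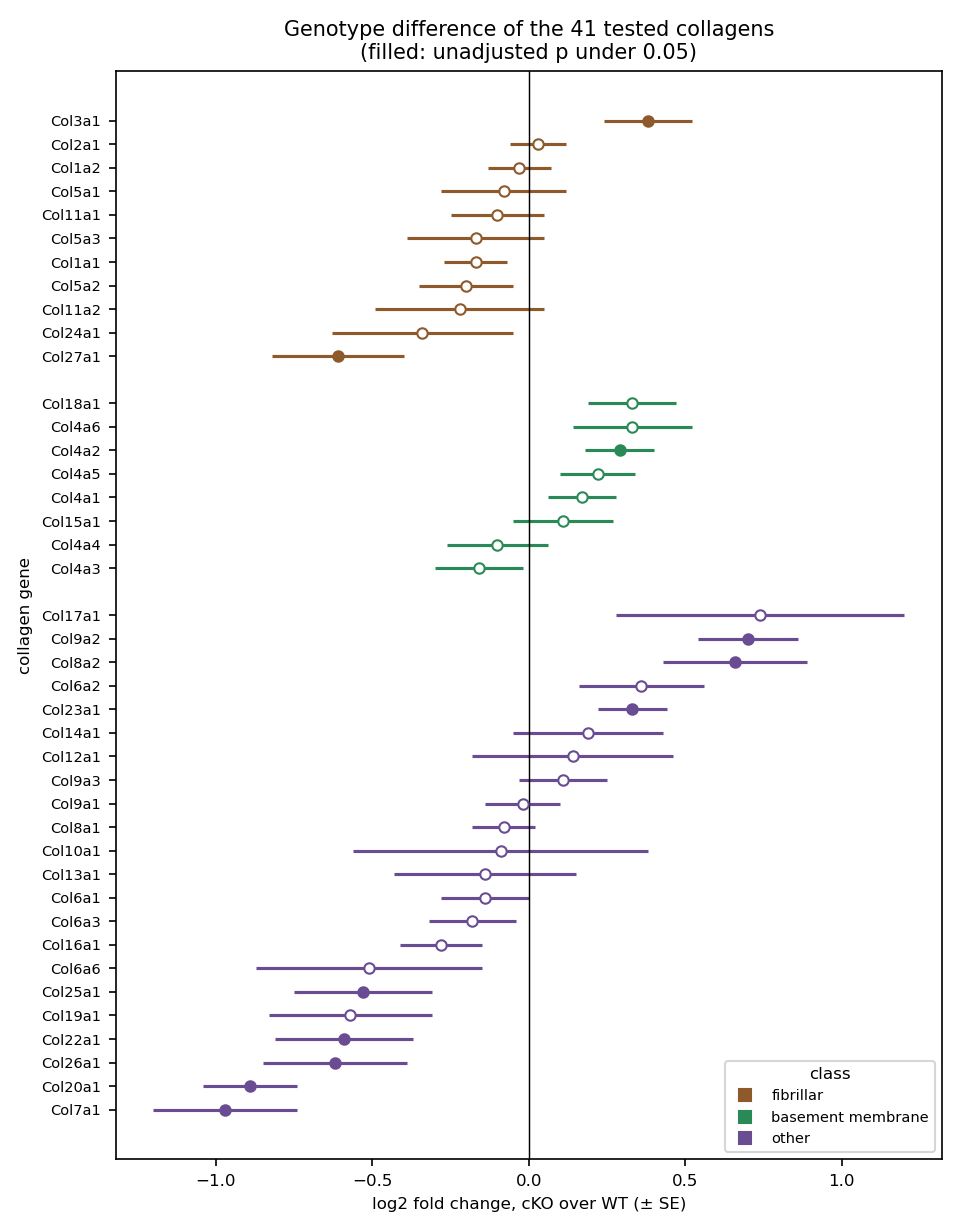
Log2 fold change of cKO over WT for the 41 tested collagens by class (bars: ± SE from edgeR, filled points: unadjusted p under 0.05). Of the 8 basement membrane genes 6 lie right of 0, and the outermost genes, Col17a1, Col9a2 and Col8a2 on the right and Col7a1 and Col20a1 on the left, are other collagens.

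Among fibrillar collagens the type I chains had close values in both genotypes. Col1a1 had 111, 168, 110.4 and 212 CPM in cKO eyes at ZT3, ZT9, ZT15 and ZT21, against 116, 193, 141 and 222 CPM in WT eyes. Its log2 fold change was -0.17 (SE 0.10, adjusted p in edgeR 0.375), with each cKO library a little under the WT library of the same time. Its partner Col1a2 had 128, 163, 143 and 219 CPM in cKO eyes, against 124, 168, 164 and 207 CPM in WT eyes. The genotypes overlapped throughout, and the log2 fold change was -0.03 (SE 0.10), a sign that turned to 0.09 after a trend with length and GC content was removed.

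Col3a1, the chain of the thin reticular fibrils of soft tissues and vessel walls, had 84.3, 73.5, 64.3 and 91.4 CPM in cKO eyes, against 73.8, 55.0, 59.6 and 51.9 CPM in WT eyes. It was higher in cKO at 4 of 4 times, although the lowest cKO library lay under the highest WT library (log2 fold change 0.38, SE 0.14, adjusted p in edgeR 0.188). The 4 smooth muscle and pericyte markers, none at 0, summed to 413 to 504 CPM in cKO eyes and 293 to 394 CPM in WT eyes, and their part in the values of Col3a1 was not tested. Col27a1, a slender fibrillar collagen best known from cartilage, had 4.97, 3.53, 4.72 and 6.01 CPM in cKO eyes, against 5.74, 8.85, 6.25 and 8.47 CPM in WT eyes. It was lower at 4 of 4 times with overlap of the groups only between cKO at ZT21 and WT at ZT3 (log2 fold change -0.61, SE 0.21, adjusted p in edgeR 0.181). Without either library of ZT9 its unadjusted p no longer passed 0.05, and without WT at ZT9 its log2 fold change was -0.37. Col2a1, at 23.2 to 27.3 CPM in cKO eyes and 21.5 to 26.9 CPM in WT eyes, had a log2 fold change of 0.03 (SE 0.09).

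Type V and XI chains, which sit inside or at the start of fibrils and set their width, had log2 fold changes between -0.22 (Col11a2) and -0.08 (Col5a1), none with an unadjusted p under 0.05. Col5a2 had 10.1, 8.38, 6.19 and 12.0 CPM in cKO eyes, against 12.5, 10.1, 8.66 and 10.1 CPM in WT eyes. Col11a1 had 8.10, 7.22, 5.23 and 8.22 CPM in cKO eyes, against 9.77, 7.19, 6.78 and 6.97 CPM in WT eyes. For both genes cKO at ZT15 was the lowest library and WT at ZT3 the highest. Col5a3 had 3.57, 2.21, 1.33 and 2.07 CPM in cKO eyes, against 3.42, 2.29, 2.26 and 2.13 CPM in WT eyes, with both ZT3 libraries above the other 6.

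The basement membrane class is led by Col4a1 and Col4a2, the chains of the ubiquitous type IV trimer. Col4a2 had 162, 164, 162 and 179.8 CPM in cKO eyes, against 156, 129.9, 129.5 and 132 CPM in WT eyes. All cKO libraries were above all WT libraries, narrowly so for WT at ZT3, and the log2 fold change was 0.29 (SE 0.11, adjusted p in edgeR 0.195). The separation rests on the TMM scaling. As plain counts Col4a2 had 2548 of 15255578 in WT at ZT3 and 2544 of 16510594 in cKO at ZT3, a higher share in WT. Col4a1 had 311, 289, 283 and 299.5 CPM in cKO eyes, against 329.9, 242, 248 and 240.2 CPM in WT eyes. Here WT at ZT3 was the highest of the 8 libraries and the other 3 WT libraries the lowest (log2 fold change 0.17, SE 0.11, adjusted p in edgeR 0.403). Without WT at ZT3 the log2 fold change was 0.27 for Col4a1 and 0.38 for Col4a2. The lens, whose capsule is rich in type IV, differed as well. Its 6 markers, none at 0, had log2 fold changes of 0.37 to 0.98 and sums that did not overlap, 97190 to 131200 CPM in cKO eyes against 58860 to 79700 CPM in WT eyes. Their part in the values of type IV was not tested.

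Both genes lie head to head on chromosome 8, Col4a1 from 11198423 to 11312826 on the minus strand with 52 exons in its longest transcript and Col4a2 from 11312805 to 11449287 on the plus strand with 48 (GRCm38, GENCODE M21). Their first exons overlap by 22 bases, and whether counting used strand is not given in the sources used here. RefSeq promoter windows of both genes (GRCm38.p6, 250 bases before to 50 after the start) share 78 bases, and they are shown because the pair lies head to head and leads its class in level. Capitals mark GGGCGG (a GC box), CCAAT and AGAACA (an arm of the glucocorticoid receptor element) or their reverse complements. The Col4a1 window is chr8:11312777-11313076 on the minus strand, and the Col4a2 window is chr8:11312555-11312854 on the plus strand.
Col4a1: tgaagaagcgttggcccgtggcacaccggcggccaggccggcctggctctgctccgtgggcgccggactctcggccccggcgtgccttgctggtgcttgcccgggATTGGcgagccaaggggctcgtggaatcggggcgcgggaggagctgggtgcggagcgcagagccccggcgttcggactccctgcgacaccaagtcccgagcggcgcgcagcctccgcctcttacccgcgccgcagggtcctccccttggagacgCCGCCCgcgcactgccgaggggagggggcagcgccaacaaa
Col4a2: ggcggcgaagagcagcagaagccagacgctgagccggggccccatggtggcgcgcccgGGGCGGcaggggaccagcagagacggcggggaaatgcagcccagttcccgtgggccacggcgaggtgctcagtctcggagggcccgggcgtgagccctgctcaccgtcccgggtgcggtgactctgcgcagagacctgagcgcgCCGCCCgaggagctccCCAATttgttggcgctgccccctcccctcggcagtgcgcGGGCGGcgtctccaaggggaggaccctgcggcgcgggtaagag
The Col4a1 window holds 1 GC box and 1 CCAAT, and the Col4a2 window holds 3 GC boxes and 1 CCAAT. Neither holds AGAACA.

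The type IV trimer of mature glomerular and ocular membranes is made of Col4a3, Col4a4 and Col4a5. Col4a3 had 71.0, 53.3, 57.8 and 54.7 CPM in cKO eyes, against 85.9, 78.4, 57.7 and 47.7 CPM in WT eyes, which placed cKO lower at ZT3 and ZT9 and higher or level in the dark (log2 fold change -0.16, SE 0.14). Col4a5 had 53.8, 42.8, 38.7 and 46.0 CPM in cKO eyes, against 57.9, 38.3, 30.6 and 32.2 CPM in WT eyes (0.22, SE 0.12). Col4a4 and Col4a6, of which Col4a6 is a partner of Col4a5 in membranes of epithelia and smooth muscle, had log2 fold changes of -0.10 (SE 0.16) and 0.33 (SE 0.19). Neither passed an unadjusted p of 0.05.

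The multiplexins sit at the rim of basement membranes, and the end of the Col18a1 protein can be released as endostatin, an inhibitor of vessel growth. Col18a1 had 112, 78.6, 63.7 and 77.6 CPM in cKO eyes, against 116, 57.3, 55.4 and 47.4 CPM in WT eyes. At ZT3 the genotypes were level, and at the other 3 times cKO was higher (log2 fold change 0.33, SE 0.14, adjusted p in edgeR 0.234). Without WT at ZT3 the log2 fold change was 0.47 and the unadjusted p was under 0.05. Col15a1 had 5.29, 4.74, 3.54 and 3.88 CPM in cKO eyes, against 5.25, 5.14, 2.94 and 3.13 CPM in WT eyes (0.11, SE 0.16).

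Of the other collagens, Col20a1 had the smallest p between genotypes of all 41. It is a fibril-associated collagen known from the cornea of the chick. It had 5.36, 3.20, 6.12 and 4.68 CPM in cKO eyes at ZT3, ZT9, ZT15 and ZT21, against 8.92, 7.35, 9.79 and 9.25 CPM in WT eyes. Every cKO library was below every WT library, and the exact Poisson 95% intervals of cKO at ZT15, 4.87 to 7.58 CPM, and of WT at ZT9, 5.93 to 9.00 CPM, overlapped. The log2 fold change was -0.89 (SE 0.15, adjusted p in edgeR 0.157) and ran from -0.96 to -0.79 on leaving out 1 library. DESeq2 gave it no adjusted p.

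Col7a1, which forms the anchoring fibrils under stratified epithelia such as that of the cornea, had 2.61, 2.42, 3.09 and 2.87 CPM in cKO eyes, against 8.0, 5.37, 4.14 and 4.48 CPM in WT eyes. The cKO libraries, at 41 to 44 counts each, were close to each other and all below WT, which was highest at ZT3. The log2 fold change was -0.97 (SE 0.23, adjusted p in edgeR 0.157), and it was -0.72 without WT at ZT3. The 4 corneal epithelium markers, none at 0, summed to 2569 to 4717 CPM in cKO eyes and 2053 to 2956 CPM in WT eyes, and each of the 4 had a log2 fold change above 0, from 0.24 to 0.50. Their part in the values of Col7a1 was not tested.

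Col9a2, a chain of the type IX collagen that coats type II fibrils, had 13.3, 12.2, 9.58 and 12.8 CPM in cKO eyes, against 9.04, 6.00, 7.68 and 6.69 CPM in WT eyes. Every cKO library was above every WT library, and the log2 fold change was 0.70 (SE 0.16, adjusted p in edgeR 0.157, in DESeq2 0.0327). Without TMM scaling the groups overlapped, with 148 of 15255578 counts in WT at ZT3 and a lower share, 130 of 13672717, in cKO at ZT15. The other type IX chains had smaller differences. The log2 fold change was -0.02 (SE 0.12) for Col9a1 and 0.11 (SE 0.14) for Col9a3, and the type II chain that they coat had 0.03. The difference between the chains was not tested.

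The promoter windows of these 3 genes are shown with the same marks, because their libraries did not overlap between genotypes in scaled CPM. They lie at chr2:180986285-180986584 on the plus strand for Col20a1, at chr9:108953336-108953635 on the plus strand for Col7a1 and at chr4:121039316-121039615 on the plus strand for Col9a2.
Col20a1: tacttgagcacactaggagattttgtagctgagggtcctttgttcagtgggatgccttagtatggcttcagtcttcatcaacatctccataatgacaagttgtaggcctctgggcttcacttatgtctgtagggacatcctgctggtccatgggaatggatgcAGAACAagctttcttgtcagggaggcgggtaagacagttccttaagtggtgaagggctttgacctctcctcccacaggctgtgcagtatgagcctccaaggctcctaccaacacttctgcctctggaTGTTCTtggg
Col7a1: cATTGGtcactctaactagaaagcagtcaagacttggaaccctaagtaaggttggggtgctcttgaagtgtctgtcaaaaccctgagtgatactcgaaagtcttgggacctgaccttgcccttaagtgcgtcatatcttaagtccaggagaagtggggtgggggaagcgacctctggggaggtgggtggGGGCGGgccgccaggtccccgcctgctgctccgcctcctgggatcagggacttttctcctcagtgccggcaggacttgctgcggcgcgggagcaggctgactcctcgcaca
Col9a2: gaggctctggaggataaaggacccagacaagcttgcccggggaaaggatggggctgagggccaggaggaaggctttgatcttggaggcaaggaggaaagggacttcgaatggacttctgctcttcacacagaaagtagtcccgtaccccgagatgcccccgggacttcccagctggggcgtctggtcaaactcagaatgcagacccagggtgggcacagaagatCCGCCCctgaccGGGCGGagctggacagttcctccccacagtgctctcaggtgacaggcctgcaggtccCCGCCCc
The Col20a1 window holds AGAACA or its complement at 2 places, no GC box and no CCAAT. The Col7a1 window holds 1 GC box and 1 CCAAT, and the Col9a2 window 3 GC boxes. The genes themselves have 36, 119 and 32 exons in their longest annotated transcripts, in that order.

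Col8a2, whose product forms the Descemet lattice with that of Col8a1, had 146, 82.0, 70.1 and 110.5 CPM in cKO eyes, against 154, 49.1, 49.5 and 39.5 CPM in WT eyes. The genotypes were level at ZT3 and cKO was higher at the other 3 times (log2 fold change 0.66, SE 0.23, adjusted p in edgeR 0.188, in DESeq2 0.0749). Col8a1 had 93.9, 61.3, 60.4 and 64.7 CPM in cKO eyes, against 90.3, 66.2, 71.8 and 65.0 CPM in WT eyes, with a log2 fold change of -0.08 (SE 0.10). Slc4a11, the marker of corneal endothelium, had 37.1, 36.6, 21.8 and 22.1 CPM in cKO eyes, against 37.1, 27.5, 18.2 and 17.9 CPM in WT eyes. It was also highest at ZT3 in WT eyes, but in cKO eyes it was level at ZT3 and ZT9. Col8a2 of cKO eyes fell between these times and rose again at ZT21, where Slc4a11 stayed low. The part of corneal endothelium in the values of type VIII was not tested.

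Col17a1, which spans the membrane of basal epithelial cells at hemidesmosomes, had 51.1, 35.2, 47.9 and 67.2 CPM in cKO eyes, against 104, 23.9, 18.5 and 16.4 CPM in WT eyes. WT at ZT3 stood far above the other 7 libraries, and at the other 3 times every WT value was below every cKO value. The log2 fold change of 0.74 therefore had an SE of 0.46 (adjusted p in edgeR 0.384), and without WT at ZT3 it was 1.33. The sum of the corneal epithelium markers in WT eyes was 2956 CPM at ZT3, against 2512, 2753 and 2053 CPM at the later times. Of its 4 genes Krt12 was highest at ZT3, with 1600 CPM, and Krt5, Krt14 and Krt15 were not, Krt15 being lowest there with 194 CPM. Their part in the values of Col17a1 was not tested. Col23a1, another membrane-spanning collagen, had 76.0, 69.5, 60.1 and 68.8 CPM in cKO eyes, against 73.3, 47.2, 48.2 and 52.4 CPM in WT eyes. It was higher in cKO at 4 of 4 times (log2 fold change 0.33, SE 0.11, adjusted p in edgeR 0.179).

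The remaining other collagens with an unadjusted p under 0.05 were all lower in cKO. They were Col26a1 (log2 fold change -0.62, SE 0.23), Col22a1 of tissue junctions (-0.59, SE 0.22) and Col25a1, a membrane-spanning collagen of neurons (-0.53, SE 0.22), each lower at 3 of 4 times with an adjusted p in edgeR of 0.195 to 0.230. Col12a1 averaged 25.9 ± 10.3 CPM in cKO eyes and 26.2 ± 17.8 CPM in WT eyes (SD, n = 4 libraries each), and its log2 fold change of 0.14 turned to -0.24 on leaving out cKO at ZT21. The beaded-filament chains Col6a1, Col6a2 and Col6a3, which form microfibrils around cells, had log2 fold changes of -0.14 (SE 0.14), 0.36 (SE 0.20) and -0.18 (SE 0.14). Without both ZT9 libraries the count of collagens at an unadjusted p under 0.05 was 4, namely Col4a2, Col7a1, Col9a2 and Col20a1, and without both ZT3 libraries it was 16. The share of all genes moved the same way, to 12.5% without ZT9 and 25% without ZT3.

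Set time by time, most collagens had lower values in cKO at ZT3 and higher values at ZT21. At ZT3, ZT9, ZT15 and ZT21 the number of tested collagens with more CPM in cKO than in WT was 12, 17, 18 and 30 of 41. Over all genes that share was 50, 47.7, 49.1 and 49.9%. The 8 basement membrane collagens had 2, 5, 8 and 8 members higher in cKO, with median log2 differences of -0.09, 0.12, 0.22 and 0.38. Fibrillar collagens had 4, 4, 2 and 8 of 11 higher, and the other collagens 6, 8, 8 and 14 of 22. Each time rests on 1 pool per genotype, so these counts have no replicate and the members share the same libraries.

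**Figure D3:**
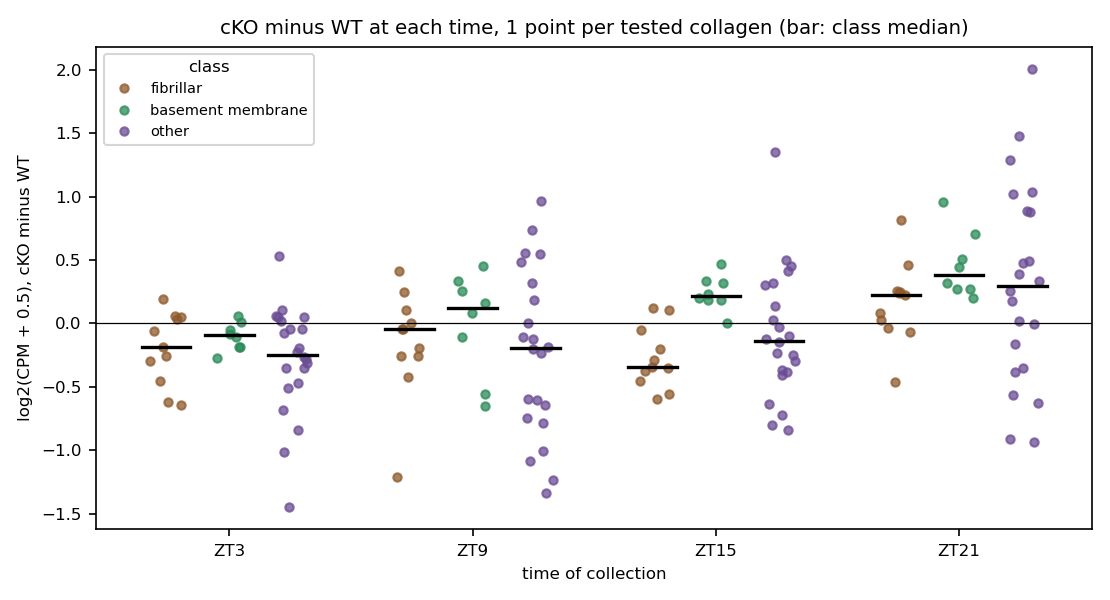
Difference of cKO minus WT in log2(CPM + 0.5) at each time of collection, 1 point per tested collagen coloured by class, with a black bar at the class median. The basement membrane points lie at or above 0 at ZT15 and ZT21, and the other collagens spread the most, from Col17a1 at the top of ZT21 to the lowest points at ZT3 and ZT9.

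The second comparison asked which collagens vary over the day in both genotypes. Shared patterns were a maximum at ZT3, seen in Col8a2, Col12a1, Col18a1 and most of type IV, a maximum at ZT9 in Col19a1, and maxima at ZT9 and ZT21 in Col1a1. Col1a2 had the same maxima in cKO eyes, but in WT eyes it was level at ZT9 and ZT15. A cosine wave of 24 h was fitted on top of the genotype. edgeR called 0 of 15373 genes (0%) and so 0 collagens, and the lowest adjusted p was 0.262. An unadjusted p under 0.05 was reached by 8 of 41 collagens, where 17.8% of all genes passed. DESeq2 called 596 genes, 4.3% of those it adjusted, and 3 collagens, Col8a2, Col12a1 and Col19a1.

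The fitted peak fell between ZT0 and ZT6 for 26 of 41 collagens, where 35.5% of all genes did so. It did so for 8 of 8 basement membrane collagens, 6 of 11 fibrillar and 12 of 22 other collagens. The highest library was that of ZT3 in both genotypes for 14 collagens, where 24.8% of all genes did so, among them 6 basement membrane collagens and 1 fibrillar collagen. It was that of ZT21 in both genotypes for 3 collagens, where 5.56% of all genes did so, and these were the fibrillar genes Col1a1, Col1a2 and Col2a1. Within a genotype, ZT21 was the highest time in cKO eyes for 19 of 41 collagens, against 16.7% of all genes, and in WT eyes for 4, against 24.9% of all genes. ZT3 was the highest time in cKO eyes for 16 collagens, against 35.1% of all genes, and in WT eyes for 28, against 35.5%.

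Col19a1 had the smallest p of the wave, 0.000564 unadjusted (adjusted p in edgeR 0.262, in DESeq2 0.000146). It had 4.72, 5.84, 2.58 and 1.67 CPM in cKO eyes at ZT3, ZT9, ZT15 and ZT21, against 4.88, 15.6, 2.86 and 2.28 CPM in WT eyes. In both genotypes the level was highest at ZT9 and lowest at ZT21, and WT at ZT9 stood far above the rest, with an exact Poisson 95% interval of 13.5 to 17.9 CPM. The fitted ratio of peak to trough was 5.80. Col12a1 had 39.0, 18.6, 16.8 and 29.3 CPM in cKO eyes, against 48.6, 32.5, 12.1 and 11.7 CPM in WT eyes, with a ratio of 3.17 (adjusted p in edgeR 0.262, in DESeq2 0.0219). Both genotypes were highest at ZT3, but in cKO the level at ZT21 was again high.

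Col8a2 had a fitted ratio of peak to trough of 2.63 with a peak near ZT2.7 (adjusted p in edgeR 0.263, in DESeq2 0.0335). Among basement membrane collagens the ratio was 1.95 for Col18a1, 1.82 for Col15a1 and 1.64 for Col4a5, each with an unadjusted p under 0.05, but 1.22 for Col4a1 and 1.12 for Col4a2. Without WT at ZT3 only Col15a1 and Col19a1 kept an unadjusted p under 0.05, where 6.04% of all genes passed. Without WT at ZT21 there were 15 collagens, where 24% of all genes passed, beside 17.8% in the full data. Some markers were highest at ZT3 too. The 5 vascular endothelium markers, none at 0, summed to 158, 136, 114 and 134 CPM in cKO eyes, against 165, 117, 102 and 107 CPM in WT eyes. The 3 retinal pigment epithelium markers, none at 0, summed to 531, 395, 330.1 and 417 CPM in cKO eyes, against 501, 276, 312 and 296 CPM in WT eyes. Both sums were highest at ZT3 in both genotypes, that of the pigment epithelium through Rlbp1, since Rpe65 had 154, 119, 138 and 157.5 CPM in cKO eyes, against 160, 142, 163 and 157 CPM in WT eyes. The part of these cells in the collagen values was not tested.

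Apart from Col1a2 in WT eyes, the type I chains followed another order that a wave of 24 h cannot describe. As given above, Col1a1 of both genotypes and Col1a2 of cKO eyes were low at ZT3, high at ZT9, lower at ZT15 and highest at ZT21. Col1a2 of WT eyes was lowest at ZT3, level at ZT9 and ZT15, with 168 and 164 CPM, and highest at ZT21. In a fit with time as a factor of 4 levels, added after this pattern was seen, the highest time exceeded the lowest by 1.91-fold for Col1a1 (unadjusted p = 0.00104, adjusted p in edgeR 0.0792) and by 1.69-fold for Col1a2 (adjusted p in edgeR 0.101). That fit had 12 of 41 collagens at an unadjusted p under 0.05, where 25.9% of all genes passed, and called 0 genes. Without both ZT9 libraries the wave called 1543 genes, 10% of those tested, and 4 collagens, namely Col1a1, Col1a2, Col18a1 and Col19a1. The cosine and sine then fit the mean of each remaining time exactly, so that fit tests any difference between times and not a wave. The 7 genes listed as keratocyte and scleral fibroblast markers, none at 0, summed to 1081, 1208, 1538 and 1811 CPM in cKO eyes, against 1291, 1107, 1092 and 1270 CPM in WT eyes. Most of the sum came from Aldh3a1 and Dcn. Aldh3a1 had 754, 815, 1252 and 1295 CPM in cKO eyes, against 911, 639, 602 and 590 CPM in WT eyes. Krt12, a marker from the corneal epithelium list, had 1333, 1134, 2020 and 1720 CPM in cKO eyes, against 1600, 905, 1026 and 883 CPM in WT eyes. Dcn had 242, 326, 222 and 366 CPM in cKO eyes, the same order of times as Col1a1 there, and 268, 416, 432 and 607 CPM in WT eyes. Kera had that order in cKO eyes too, and Angptl7 rose there from ZT3 through to ZT21. Pdgfra, Dpt and Lum instead fell in cKO eyes from ZT3 to ZT9, from 26.5 to 19.3, 11.7 to 7.99 and 35.5 to 24.1 CPM. In WT eyes Pdgfra, Dpt, Lum and Kera were highest at ZT3, where Col1a1 was lowest. Which cells the Aldh3a1 counts came from was not tested, nor was the part of keratocytes and scleral fibroblasts in the values of type I.

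**Figure D4:**
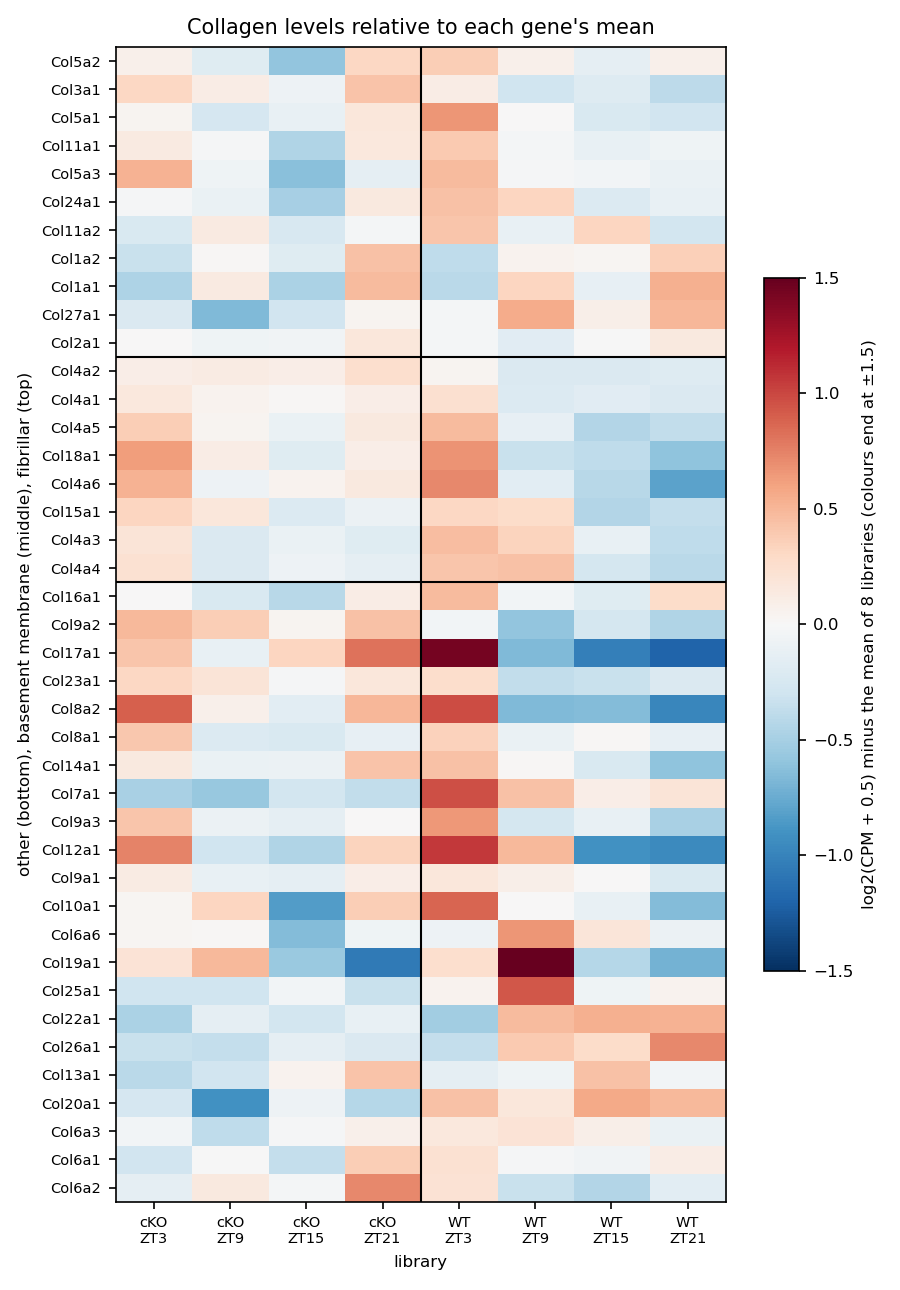
Level of the 41 tested collagens in log2(CPM + 0.5) minus the gene's mean over the 8 libraries, with the 4 cKO libraries left of the 4 WT libraries and genes grouped by class and ordered by the fitted peak time. WT at ZT3 is above the mean for the 8 basement membrane genes and far above it for Col17a1, Col8a2 and Col12a1, while Col1a1 and Col1a2 are below it there.

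The third comparison asked whether the difference between light (ZT3 and ZT9) and dark (ZT15 and ZT21) is the same in both genotypes. The difference of light minus dark was smaller in cKO than in WT for 32 of 41 collagens, where this held for 51.6% of all genes. It held for 8 of 8 basement membrane, 7 of 11 fibrillar and 17 of 22 other collagens, with a median of -0.31 on the log2 scale for the collagens and -0.02 for all genes. edgeR called 0 of 15373 genes (0%), the lowest adjusted p being 0.876. An unadjusted p under 0.05 was reached by 3 of 41 collagens, all smaller in cKO, where 5.29% of all genes passed in either direction and 4.71% in this direction. DESeq2 called 47 genes, 0.35% of those it adjusted, and 0 collagens.

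The 3 genes were Col17a1, Col12a1 and Col4a4. For Col17a1 the log2 difference of light minus dark was -0.42 in cKO eyes and 1.5 in WT eyes, and the gap was -2.29 (SE 0.83, adjusted p in edgeR 0.889). For Col12a1 it was 0.28 in cKO eyes and 1.70 in WT eyes, with a gap of -1.45 (SE 0.57). Col4a4 had 0.11 in cKO eyes and 0.76 in WT eyes, with a gap of -0.64 (SE 0.25). Its levels were 55.3, 40.5, 44.6 and 42.8 CPM in cKO eyes, against 63.1, 64.1, 39.1 and 35.5 CPM in WT eyes, so that WT was high at both light times. Without both libraries of ZT3 or of ZT9 the light side held 1 pool per genotype. Counts of calls from such fits rest on single pools and are not given.

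Chains that are built into the same trimer can be compared within a library, where depth and scaling cancel. The count of Col4a1 was 1.67 to 1.92 times that of Col4a2 in cKO eyes and 1.82 to 2.12 times in WT eyes. Col4a3 and Col4a4, which also lie head to head, 71 bases apart on chromosome 1, each spanned 1.80-fold over the libraries. Their ratio spanned 1.21-fold, with 1.28 to 1.31 in cKO eyes and 1.22 to 1.48 in WT eyes. The third such pair, Col4a5 and Col4a6 on the X chromosome, had a ratio of 1.78 to 2.16 in cKO eyes and 1.67 to 2.75 in WT eyes, and Col4a6 by itself spanned 2.95-fold.

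Col6a1 over Col6a2 was 1.22, 1.22, 1.08 and 1.06 in cKO eyes, against 1.37, 1.72, 1.79 and 1.65 in WT eyes, so the genotypes did not overlap although neither gene passed an unadjusted p of 0.05. Col9a2 over Col9a3 was 0.430, 0.564, 0.459 and 0.554 in cKO eyes, against 0.25, 0.317, 0.362 and 0.412 in WT eyes, again without overlap, as in the scaled CPM of Col9a2 alone. Col8a1 over Col8a2 was 0.585 to 0.862 in cKO eyes, and in WT eyes it was 0.587 at ZT3 but 1.35 to 1.65 from ZT9 to ZT21. Col1a1 over Col1a2, at 0.775 to 1.03 in cKO eyes and 0.856 to 1.15 in WT eyes, was highest at ZT9 in both genotypes. The genotypes overlapped in the ratios of Col6a3 over Col6a1, Col9a1 over Col9a3, Col5a1 over Col5a2 and Col1a1 over Col3a1. How often the ratio of any other gene pair separates the genotypes was not computed. A ratio of counts shows that the chains differed in their behaviour and not which of them moved.

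**Figure D5:**
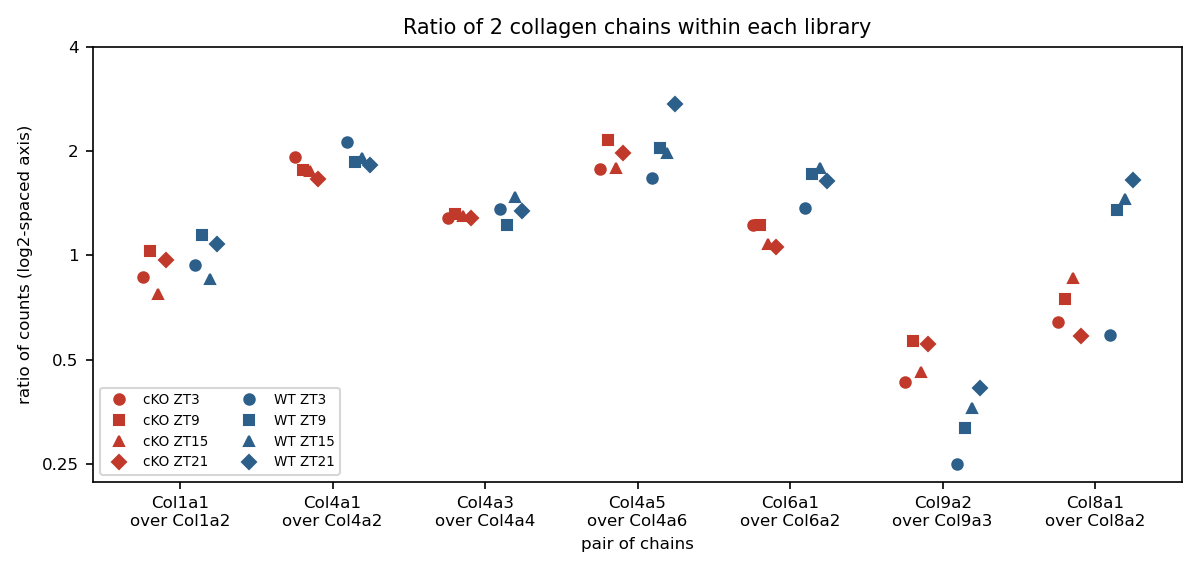
Ratio of the counts of a pair of collagen chains in each library on a log2-spaced axis, with cKO in red left of WT in blue and 1 symbol per time. The ratios of Col6a1 over Col6a2 and of Col9a2 over Col9a3 do not overlap between the genotypes, whereas those of the type IV pairs do.

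Genes that make, modify, cut and bind collagen were counted from lists chosen by function, and none passed an adjusted p of 0.05 in edgeR between the genotypes. The counts at an unadjusted p under 0.05 stand beside 10.5% higher, 11% lower and 21.5% in either direction over all genes. The synthesis list had 30 of 31 genes tested, with 2 higher and 4 lower in cKO at an unadjusted p under 0.05 and a median log2 fold change of 0.06. Its 3 smallest p-values belonged to Adamts2, which removes the front propeptide of fibrillar collagens (-0.53, SE 0.17), Serpinh1, the collagen chaperone of the endoplasmic reticulum (0.56, SE 0.20), and P4ha3, a prolyl hydroxylase subunit (-0.95, SE 0.36). Serpinh1 had 50.3, 47.2, 41 and 66.0 CPM in cKO eyes, against 58.3, 25.1, 27.9 and 33.2 CPM in WT eyes, again with a high WT library at ZT3. The breakdown list had 14 of 16 genes tested, with 4 higher and 1 lower and a median of 0.18. It was led by the matrix metalloproteinase Mmp15 (0.33, SE 0.10), the inhibitor Timp2 (0.56, SE 0.19) and the protease cathepsin K, Ctsk (0.41, SE 0.15).

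The 12 proteoglycans that bind fibrils, all tested, had a median log2 fold change of 0.22, and at an unadjusted p under 0.05 there were 3 higher and 1 lower in cKO. Optc, the opticin of the vitreous, had 62.2, 36.3, 22.3 and 33.5 CPM in cKO eyes, against 44.8, 14.8, 16.4 and 16.9 CPM in WT eyes (0.80, SE 0.16). Dcn, the decorin that regulates fibril width, had 242, 326, 222 and 366 CPM in cKO eyes, against 268, 416, 432 and 607 CPM in WT eyes, lower at each time (-0.55, SE 0.15). Bgn, its relative biglycan, was on the other side (0.90, SE 0.31), and the adjusted p of these 3 genes in edgeR ran from 0.157 to 0.180. The 18 partners of type IV in basement membranes had 1 gene higher, Sparc, a secreted collagen-binding protein (0.34, SE 0.12), 0 lower and a median of 0.05, with Lamb2 (0.36, SE 0.16) and Hspg2 (0.40, SE 0.20) next. The 7 receptors had 0 higher and 1 lower, the integrin Itga10 (-0.83, SE 0.27), with Ddr1 (0.22, SE 0.11) and Itgb1 (0.26, SE 0.14) next. Of 11 transcription and growth factors 10 were tested, with Tgfb3 higher (0.38, SE 0.11) and Sox9, an activator of Col2a1, lower (-0.39, SE 0.15), and Tgfb1 next (0.21, SE 0.12).

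Promoter windows were found for 35 of the 44 collagens, 38 windows in all. A search on both strands found GGGCGG in 60.5% of them, against 35.7% of all 32851 windows of the table, CCAAT in 34.2% against 37.4%, and TATAAA in 13.2% against 13.6%. AGAACA was in 5.26%, the windows of Col20a1 and Col9a1, against 19%, and the E-box CACGTG in 0% against 7.15%. A full receptor element, with both arms facing each other 3 bases apart, was in 0% of collagen windows and 0.00913% of all windows. The windows differ in base composition, with a median GC content of 61.3% for fibrillar, 61.5% for basement membrane and 58.0% for other collagens, against 52.7% for all. Matches are a description of these letters in these windows and not of binding.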

How the data were processed

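RNA of whole eyes was sequenced in 8 libraries, each a pool of 3 mice, 1 per genotype and time. The authors deposited raw counts, 1 row per gene symbol, without normalization. How reads were aligned and counted, on which genome build, annotation and strand, is not given in the sources used here. Of 32544 rows, 27 symbols had been turned into dates by a spreadsheet and were left out. These rows took 0.123 to 0.145% of counts. Libraries had 11748995 to 20309611 counts. The quasi-likelihood F test of edgeR 4.0.16 (R 4.3.3) was run on TMM-scaled counts of the 15373 genes kept by filterByExpr, with Benjamini-Hochberg adjustment and a threshold of 0.05. CPM use the TMM-adjusted library size. The genotype test had time as a factor (3 residual degrees of freedom), and the wave of 24 h and the genotype by light test had 4. The time factor sets each cKO pool beside the WT pool of the same time. Two-sided exact permutation tests on log2(CPM + 0.5) used the 70 arrangements of 4 against 4 libraries. DESeq2 1.42.0, limma-voom 3.58.1, RLE scaling, no filter on low counts, removal of a length and GC trend, and leaving out libraries were alternatives. The tests were also run on simulated counts in which genes varied independently, so effects of a pool shared by many genes were not covered. Exact Poisson and Wilson intervals at 95% cover counting error only.

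Named in every library are, per class, the 4 most abundant members and the 3 with the smallest p for genotype and for the wave. Other lists give their 3 genes with the smallest p. Col4a4, Slc4a11 and genes beyond that rule were named after their values were seen. The members, classes, lists and tests were chosen with earlier results of these data known. Gene positions, exon lengths and overlaps come from GENCODE M21 (GRCm38) and promoter sequences from RefSeq (GRCm38.p6). Genes were matched by symbol, and 97.2% of tested genes had a length and GC content. Exons overlapped in part between Col9a3 and Tcfl5 (6.07% of the exon bases of Col9a3) and between Col4a3 and C430014B12Rik (5.65%), on opposite strands.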

Additional observations from a re-analysis of the deposited data

Results flagged for a closer look

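In 23 named collagens and 2 genotypes, 46 groups of 4 libraries, a library was marked where its gap to the nearest of the others was above Dixon's 95% value for 4 samples, as a share of the range of the group. Chance marks about 1 in 20 such groups, the genes share the same libraries, and 9 were marked. Each library is a different pool at a different time, and the effects of the pool and of the time cannot be told apart.

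WT at ZT3 was marked for 7 genes, always as the highest of the WT libraries. These were Col4a1 with 329.9 CPM, against 240.2 to 248 CPM in the other WT libraries, and Col4a2 with 155.6 CPM, against 129.5 to 132 CPM. Col18a1 had 116.4 CPM, against 47.4 to 57.3 CPM, Col8a2 153.9 CPM, against 39.5 to 49.5 CPM, and Col17a1 104 CPM, against 16.4 to 23.9 CPM. The fibrillar genes Col5a3, with 3.42 CPM against 2.13 to 2.29 CPM, and Col11a1, with 9.77 CPM against 6.78 to 7.19 CPM, were marked as well. In cKO eyes Col8a1 at ZT3 had 93.93 CPM, against 60.4 to 64.7 CPM in the other cKO libraries. Col4a2 at ZT21 had 179.8 CPM, against 162 to 164 CPM.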

How the results depend on the processing

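Between the genotypes the count of genes called was 0 in edgeR, 541 in DESeq2 and 7 without a filter on low counts, and that of collagens called was 1 in DESeq2 and 0 under the other alternatives. On leaving out 1 library the genes called stayed at 0, and the collagens at an unadjusted p under 0.05 ran from 4 (without WT or cKO at ZT21, or cKO at ZT9) to 16 (without either library of ZT3), with 5 without WT at ZT9 and 7 without either library of ZT15. They numbered 4 without both ZT9 libraries. On leaving out 1 library the share of all genes at that p ran from 12.5% (without either library of ZT9) to 25% (without cKO at ZT3). Leaving out 1 library moved the class medians from -0.21 to -0.04 for fibrillar, 0.12 to 0.31 for basement membrane and -0.29 to 0 for other collagens. With the trend of length and GC content removed, the log2 fold change turned to 0.09 for Col1a2, 0.10 for Col11a1 and 0.04 for Col8a1, and without a time factor to -0.02 for Col12a1. On leaving out 1 library it ran from -0.06 to 0.05 for Col1a2, -0.26 to 0.01 for Col5a3, -0.21 to 0.00 for Col11a1 and -0.24 to 0.46 for Col12a1. For the wave, DESeq2 called 596 genes and 3 collagens, and no filter gave 3 genes. Omission of both ZT9 libraries gave 1543 genes, 4 collagens and 16 collagens at an unadjusted p under 0.05, where 36% of all genes passed. Omission of both ZT3 libraries gave 5 such collagens, where 2.65% of all genes passed. Of these collagens 1 was among the 8 of the full data. On leaving out 1 library the genes called ran from 0 to 1. The collagens at an unadjusted p under 0.05 then ran from 2 to 15 (2 without WT at ZT3, 5 without WT at ZT15 or cKO at ZT3, 15 without WT at ZT21). The share of all genes at that p ran from 5.65% (without cKO at ZT3) to 24% (without WT at ZT21). The fitted peak moved to the other side of the day for Col1a2, Col1a1 and Col8a1 without both ZT3 libraries (log2 ratio of peak to trough 0.69, 1.34 and 0.10), for Col20a1 without both ZT9 libraries (0.32), and on leaving out 1 library for Col7a1 and Col1a1, whose ratios then ran from 0.05 to 0.75 and from 0.15 to 0.70. Where both libraries of a time were left out, the cosine and sine fit the mean of each remaining time exactly. Such fits test any difference between times and not a wave. For light minus dark by genotype, DESeq2 called 47 genes. Without both ZT3 libraries edgeR called 1083 genes and 2 collagens, with 8 collagens at an unadjusted p under 0.05, and without both ZT9 libraries 9 genes and 1 collagen, with 11. The cause was not tested for any of these. Of the values of the 23 named collagens under the alternatives, 357 for genotype and 332 for the wave kept their direction and their side of the threshold, 10 and 6 changed direction, and 1 and 7 newly passed an adjusted p of 0.05. With types XV and XVIII among the other collagens the class medians were 0.20 for basement membrane and -0.08 for other collagens. Where a library was left out, its time held a lone library that added nothing to the genotype contrast. Depth left Col6a4, Col6a5 and Col28a1, with 0 to 14 counts per library, without a test. The count of members at 10 CPM per kilobase or more was 7 by exon union and 9 by the longest transcript. No paired analysis beyond the time factor was possible because the labels give no replicate numbers.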
